A study of Mus musculus with 3 samples.

Results

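The genes described here serve antigen presentation in the mouse corneal epithelium. They are the 10 symbols H2-D1, H2-K1, H2-T23, B2m, Tap1 and Psmb8 of the class I pathway and Cd74, H2-Ab1, H2-Aa and H2-Eb1 of the class II pathway. All 10 were found by symbol among the 17931 genes of the deposited count table. They were followed across 8 deposited cell classes and 3 libraries, with class I genes examined mainly in the epithelium and class II genes mainly in the immune class.

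The corneal epithelium of healthy C57BL/6J mice was dissociated and profiled with a droplet kit that counts unique molecular identifiers (UMIs) at the 3′ end of transcripts. No group was treated or mutant, and each library pooled several animals. For library 1, 2 male mice aged 20 weeks gave 4 corneas. For library 2, 2 female mice aged 11 weeks gave 4 corneas. For library 3, 7 male mice aged 10 weeks gave 7 corneas. The libraries were used as the 3 replicates, and the classes of a library were treated as paired. Unless the pairing was left out, each p-value below rests on how class differences varied between the pools. That spread was estimated over all classes in a fit, not only the classes compared, and drew on all genes tested. The 3 pools also differed in age and sex.

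Every nucleated cell can show peptides from its own proteins on class I molecules, which pair a heavy chain with the light chain beta-2 microglobulin. Those peptides are cut by the proteasome, carried into the endoplasmic reticulum by the Tap transporter and read by CD8 T cells. Class II molecules carry peptides from ingested material to CD4 T cells and are made mostly by professional antigen-presenting cells, which in the corneal epithelium include Langerhans cells and macrophages. Interferon gamma is known to induce both pathways.

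The classes, taken from the deposited labels, were immune (114 cells), limbal (737), conjunctival (2422), superficial (5240), wing (13447), TAC1 (4136), TAC2 (3186) and basal (8829). The limbal, conjunctival and superficial names are readings of LSC, Conj and Squam. Gpha2, a limbal marker, had 2582 to 2847 CPM (counts normalised to the total of the class in a library) in limbal sums against 70.3 to 154 CPM in basal sums. Krt4, a mucosal keratin, had 2278 to 3957 CPM in conjunctival sums against 2.84 to 14.5 CPM in basal sums, and Krt78 had 224 to 242 CPM in superficial sums against 0.905 to 1.52 CPM in basal sums. The dividing-cell gene Mki67 had 324 to 382 CPM in TAC2 sums and 12.8 to 22.4 CPM in TAC1 sums, against 4.28 to 6.14 CPM in basal sums. A class total lay between 1733800 and 97065277 UMIs in the epithelium and between 35442 and 195797 UMIs in the immune class. Between libraries 142 barcodes were shared, none of them of an immune cell.

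H2-D1, a classical class I heavy chain, was highest in the outermost cells among the 7 epithelial classes. In libraries 1, 2 and 3 it had 1186, 874 and 1100.4 CPM in superficial cells, 668, 587 and 603 CPM in conjunctival cells, and 354, 285 and 297 CPM in wing cells. Limbal cells had 291, 252 and 273 CPM, TAC2 cells 205, 175 and 145 CPM, TAC1 cells 189, 172 and 138 CPM, and basal cells 175, 151 and 130.2 CPM. The superficial, conjunctival, wing and limbal values each lay above every basal value, while those of TAC1 and TAC2 overlapped them. In this order of levels, superficial was above conjunctival (log2 difference 0.76, adjusted p = 4.88e-07, edgeR on library totals) and conjunctival above wing (0.99, adjusted p = 5.70e-08, edgeR). Wing and limbal cells did not pass the test as neighbours (0.20, adjusted p = 0.0922, edgeR), nor did TAC2 and TAC1 (0.07, adjusted p = 0.642) or TAC1 and basal cells (0.13, adjusted p = 0.341). With trimmed-mean scaling, used for the tests further below, limbal against wing cells did pass (-0.53, adjusted p = 4.24e-06, edgeR). TAC2 and TAC1 again did not pass, nor did TAC1 and basal cells.

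H2-K1, the other classical heavy chain, followed a like order over a smaller range. Superficial cells had 355, 306 and 336 CPM, conjunctival cells 205, 211 and 197 CPM and wing cells 194, 177 and 182 CPM. Limbal cells had 188, 167 and 171 CPM, against 133, 131 and 122 CPM in basal cells. TAC2 cells were the lowest, at 102, 117 and 102 CPM, each below every basal value. H2-T23, which encodes the non-classical chain Qa-1 that presents leader peptides of other class I chains, showed less separation among the upper classes. It had 107, 83.4 and 138 CPM in superficial cells, 124, 82.9 and 118 CPM in conjunctival cells and 105, 64.4 and 115 CPM in limbal cells, which overlapped one another. Wing cells had 69.3, 50.3 and 64.5 CPM, and basal cells 29.4, 22.3 and 22.1 CPM. Library 2 was the lowest of the 3 libraries in superficial, conjunctival, limbal and wing cells.

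B2m, the light chain shared by class I molecules, was spread over the epithelium in another order. By CPM the limbal class stood alone at the top. B2m had 88.6, 75.6 and 102 CPM in limbal cells, 33.0, 32.1 and 49.5 CPM in superficial cells and 23.8, 31.5 and 39.4 CPM in conjunctival cells. Wing cells had 21.9, 23.5 and 29.3 CPM, TAC1 cells 31.1, 33.2 and 38.2 CPM and TAC2 cells 35.5, 41.5 and 43.6 CPM, against 32.7, 32.3 and 38.5 CPM in basal cells. Limbal cells exceeded TAC2 cells, the next class, by a log2 difference of 1.12 (adjusted p = 4.49e-10, edgeR on library totals). From TAC2 down to conjunctival cells no neighbouring pair passed that test, with adjusted p between 0.138 and 0.966 (edgeR). Conjunctival cells exceeded wing cells, the lowest class, by a log2 difference of 0.34 (adjusted p = 0.00180, edgeR). The order depended on the scaling. With trimmed-mean scaling limbal and superficial cells were not told apart (limbal against superficial -0.16, adjusted p = 0.116, edgeR). Superficial cells then exceeded TAC2 cells by 1.27 (adjusted p = 2.12e-14, edgeR). Library 3 had the highest B2m value in each of the 8 classes.

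**Figure D1:**
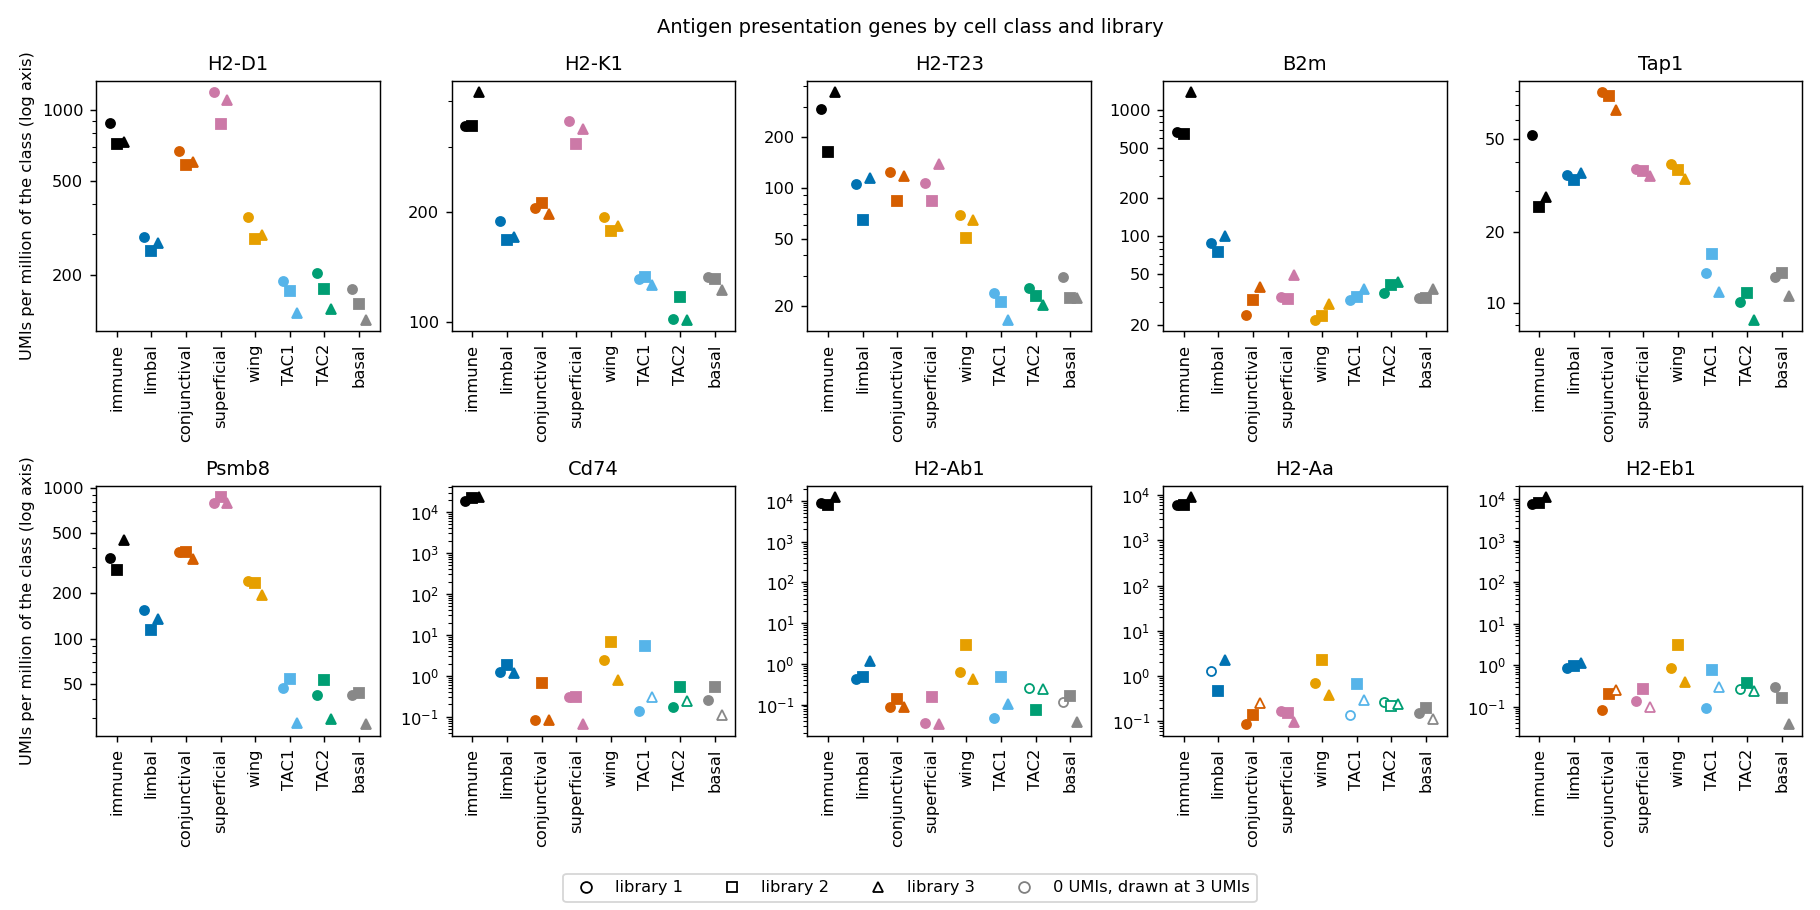
CPM, normalised to the class total (log axes), for the 10 genes, by cell class along the horizontal axis; each point is 1 library, and an open symbol is a sum with 0 UMIs drawn at the level of 3 UMIs. H2-D1 peaks at 874 to 1186 CPM in superficial cells and B2m at 75.6 to 102 CPM in limbal cells among epithelial classes, while the 4 class II genes have 5894 CPM or more in each immune sum.

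Because the heavy chains and the light chain were ordered differently, the count of H2-D1 for each B2m count varied widely between classes. It averaged 28.4 ± 6.91 in superficial cells, 20.6 ± 6.61 in conjunctival cells and 12.8 ± 3.07 in wing cells (SD over 3 libraries). The immune class had 0.986 ± 0.405 and limbal cells 3.11 ± 0.358, against 4.47 ± 0.999 in basal cells. The ratio compares 3′ counts of the genes and not numbers of protein chains. Over the 21 sums of 7 epithelial classes and 3 libraries, with each library centred, the log2 level of H2-D1 correlated with that of Psmb8 at r = 0.97 and with that of H2-K1 at r = 0.94, but with that of B2m at r = -0.08. These correlations use CPM without trimmed-mean scaling. They are descriptive, since the sums share libraries and class totals.

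**Figure D2:**
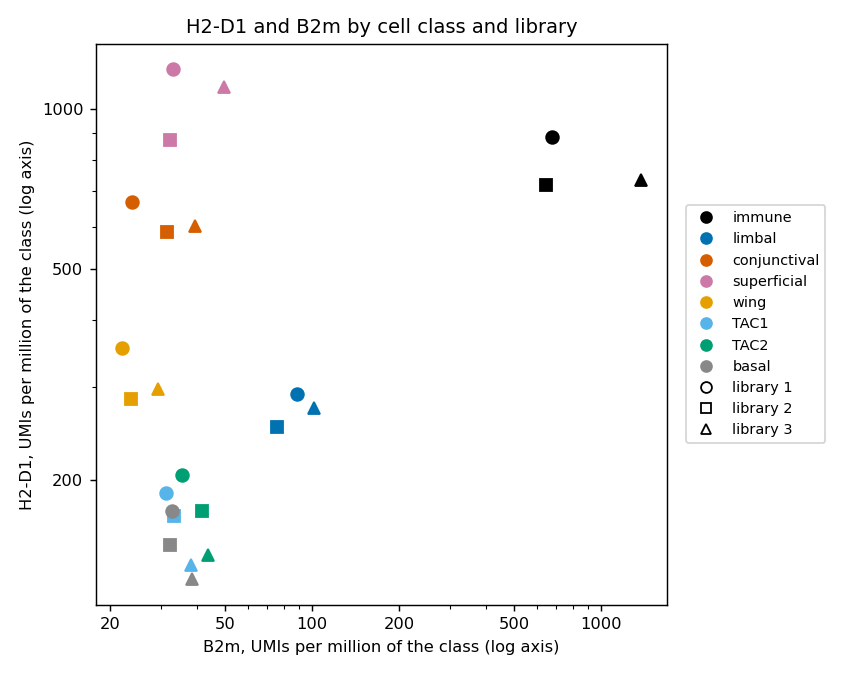
H2-D1 against B2m in CPM of the class total (log axes), with 1 point for each cell class (colour) and library (shape). Superficial and conjunctival sums lie high on H2-D1 at 23.8 to 49.5 CPM of B2m, limbal sums lie at 252 to 291 CPM of H2-D1 with 75.6 to 102 CPM of B2m, and the immune sums are high on both.

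Psmb8, an interferon-inducible catalytic subunit of the immunoproteasome, had 795, 863 and 791 CPM in superficial cells, 374, 376 and 337 CPM in conjunctival cells and 241, 234 and 194 CPM in wing cells. It had 154, 115 and 135 CPM in limbal cells, against 42.7, 43.8 and 27.1 CPM in basal cells, and the upper 4 classes did not overlap the basal class. Each step from superficial to conjunctival, wing, limbal and TAC1 cells passed the test on library totals, with the largest adjusted p at 0.00350 (edgeR). Tap1, a subunit of the peptide transporter, peaked in conjunctival cells instead, at 79.0, 75.9 and 66.5 CPM. The size of this lead over superficial cells depended on the scaling. It was 1.03 on library totals (adjusted p = 7.03e-14, edgeR) and 0.17 with trimmed-mean scaling (adjusted p = 0.0221, edgeR). Superficial cells had 37.1, 36.5 and 34.5 CPM, wing cells 39.2, 36.8 and 33.8 CPM, and limbal cells 35.0, 33.5 and 35.8 CPM, against 12.8, 13.4 and 10.6 CPM in basal cells. On library totals the wing, superficial and limbal levels of Tap1 were not told apart as neighbours (adjusted p = 0.767 and 0.431, edgeR). With trimmed-mean scaling superficial against wing cells stood at 1.01 (adjusted p = 1.75e-14, edgeR). Limbal against superficial cells then stood at -1.46 (adjusted p = 1.00e-14, edgeR).

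Shares of cells gave a similar picture after each cell had been thinned at random to 2000 UMIs. A UMI of H2-D1 was found in 82.2% ± 4.01 of superficial cells and 34.9% ± 1.79 of limbal cells, against 27.2% ± 3.73 of basal cells (SD over 3 libraries). For Psmb8 these shares were 77.4% ± 2.72, 20.3% ± 2.60 and 7.01% ± 1.89, in the same order of classes. B2m was found in 7.21% ± 1.62 of superficial cells and 18.0% ± 1.92 of limbal cells, against 6.41% ± 0.686 of basal cells. These shares count cells with a UMI at one shallow depth and not cells that express the gene.

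Differences from basal cells were then tested with edgeR's quasi-likelihood test over all 13472 genes that passed the filter on low counts, with the library as a block and trimmed-mean (TMM) scaling. All 10 genes passed that filter. The comparisons share the basal sums, so they are not independent of one another. In limbal cells 6 of 6 class I genes were higher than in basal cells, beside 22.8% of all genes called higher and 40.4% called in either direction. Psmb8 rose by 1.72 ± 0.19 (log2, SE of the fit, adjusted p = 5.30e-06, edgeR), Tap1 by 1.37 ± 0.10 (adjusted p = 9.92e-12) and B2m by 1.24 ± 0.09 (adjusted p = 1.20e-11). H2-K1 rose least, by 0.34 ± 0.06 (adjusted p = 6.13e-05, edgeR). The median of the 6 genes was 1.31, against 0.02 over all genes tested. All 6 stayed higher on library totals, where higher genes made up 68.7% of all calls, against 56.3% with TMM.

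In superficial cells 6 of 6 class I genes were higher than in basal cells, beside 42.7% of all genes called higher and 85.2% called in either direction. Psmb8 rose by 5.73 ± 0.19 (adjusted p = 1.15e-12, edgeR) and H2-D1 by 4.07 ± 0.08 (adjusted p = 9.50e-23, edgeR). B2m rose least, by 1.40 ± 0.08 (adjusted p = 8.50e-16, edgeR). With library totals and no scaling factors the median log2 difference over all genes was -1.29, against -0.02 with TMM. On that scale Psmb8 was higher by 4.46, H2-D1 by 2.80, H2-T23 by 2.15, Tap1 by 1.56 and H2-K1 by 1.37, all past the threshold, whereas B2m stood at 0.13 (adjusted p = 0.138, edgeR). Over all genes called, the higher ones made up 22.3% on library totals, against 50.1% with TMM.

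In conjunctival cells 6 of 6 class I genes were higher than in basal cells, beside 39.6% of all genes called higher, 36.7% lower and 76.3% in either direction. Psmb8 rose by 3.70 ± 0.17, Tap1 by 3.00 ± 0.07 and H2-T23 by 2.54 ± 0.16 (largest adjusted p of the 3 = 2.93e-09, edgeR). B2m rose by 0.28 ± 0.09 (adjusted p = 0.00451, edgeR), a call that was lost without library 2 (0.21, adjusted p = 0.0615), library 3 (0.16, adjusted p = 0.131), in the fit without the library block (0.29, adjusted p = 0.164), with only both classes in the fit (0.18, adjusted p = 0.0915) and with cells thinned to 2000 UMIs (0.090, adjusted p = 0.596, edgeR). On library totals B2m in conjunctival cells turned to -0.14 (adjusted p = 0.168, edgeR), and the other 5 genes stayed higher. Higher genes made up 34.0% of all calls on library totals, against 51.9% with TMM.

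In wing cells 5 of 6 class I genes were higher than in basal cells and B2m was lower, beside 39.7% of all genes called higher, 34.4% called lower and 74.1% in either direction. Psmb8 rose by 2.81 ± 0.17 and Tap1 by 1.81 ± 0.07 (largest adjusted p of the pair = 2.20e-09, edgeR). B2m fell by 0.24 on the log2 scale (SE 0.08, adjusted p = 0.00653, edgeR), and by 0.48 on library totals (adjusted p = 8.33e-06, edgeR). Without the library block this call was lost (-0.23, adjusted p = 0.253, edgeR). Higher genes made up 38.3% of all calls in wing cells on library totals, against 53.6% with TMM.

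TAC1 and TAC2 cells stayed near the basal level. In TAC1 cells 0 of 6 class I genes passed the test by edgeR or DESeq2, and 0 had an unadjusted p under 0.05 in edgeR. Their log2 differences lay between -0.22 and 0.20, while 23.9% of all genes were called, 13.7% higher and 10.2% lower. In the fit on TAC1 and basal cells alone 3 of them passed, with H2-D1 at 0.14, Psmb8 at 0.20 and H2-T23 at -0.23. In TAC2 cells 2 of 6 were lower, H2-K1 by -0.35 ± 0.06 (adjusted p = 1.72e-05, edgeR) and Tap1 by -0.41 ± 0.09 (adjusted p = 6.99e-04, edgeR), beside 19.7% of all genes called lower and 39.7% in either direction. Both remained lower on library totals, where B2m also passed, at 0.22 (adjusted p = 0.0498, edgeR). Thinned to 2000 UMIs, Tap1 in TAC2 cells was at -0.58 with an adjusted p of 0.0557 (edgeR). Higher genes made up 66.3% of all calls in TAC2 cells on library totals, against 50.4% with TMM.

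**Figure D3:**
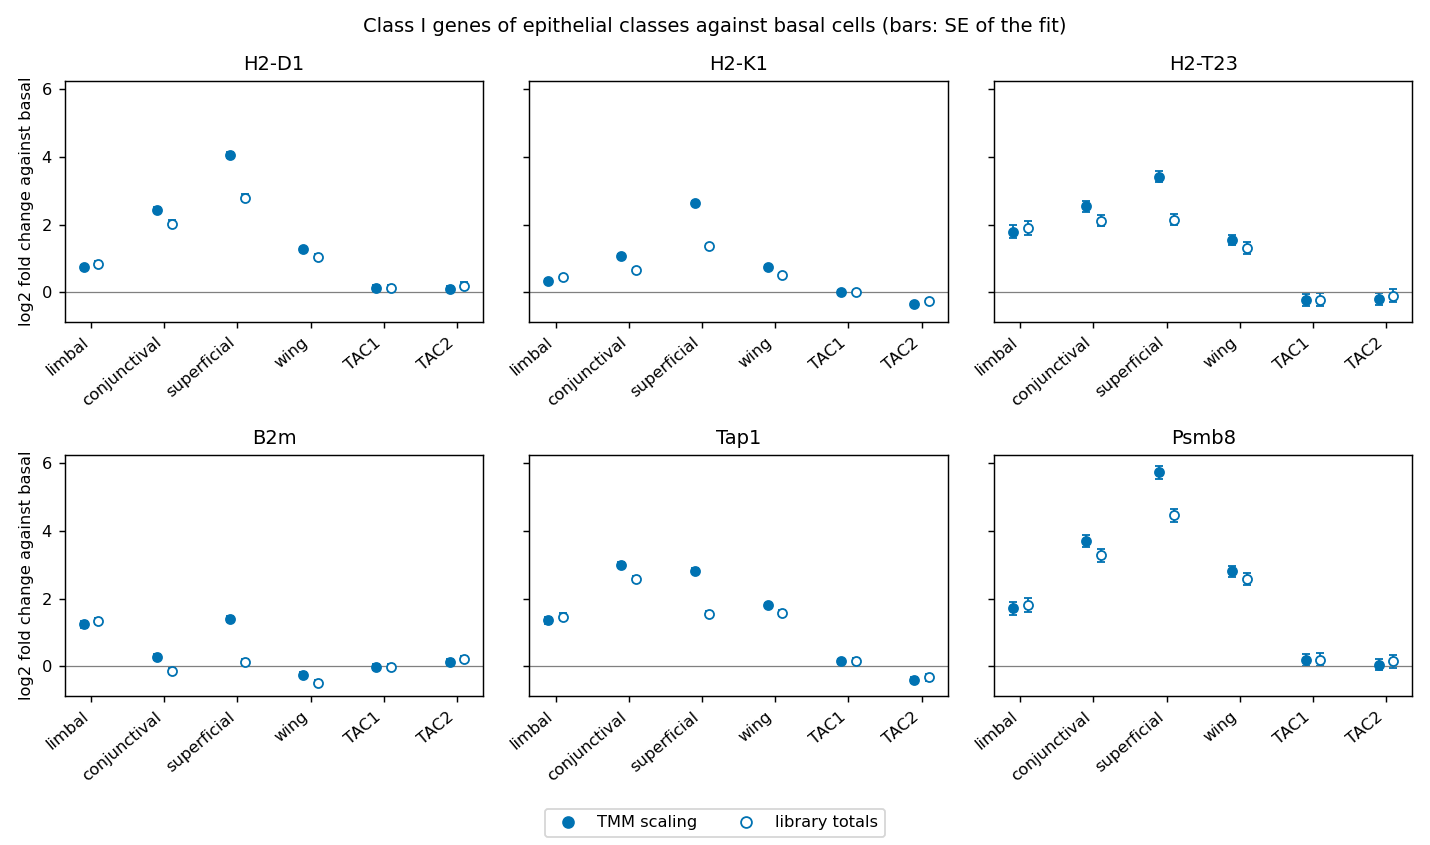
Log2 fold change against basal cells for the 6 class I genes in 6 epithelial classes, with the SE of the fit as bars; filled points use TMM scaling and open points library totals. Psmb8 reaches 5.73 and H2-D1 4.07 in superficial cells with TMM scaling, and B2m is the gene whose sign differs between the scalings in conjunctival cells, at 0.28 and -0.14.

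Set directly against limbal cells, conjunctival cells had 5 of 6 class I genes higher and B2m lower, beside 33.6% of all genes called higher, 28.8% lower and 62.3% in either direction. Psmb8 rose by 1.98 ± 0.18 and H2-D1 by 1.70 ± 0.08 (largest adjusted p of the pair = 3.27e-07, edgeR), while B2m fell by 0.97 on the log2 scale (SE 0.10, adjusted p = 1.07e-09, edgeR). H2-T23 rose by 0.74 ± 0.18 (adjusted p = 0.00232, edgeR). It no longer passed on library totals (0.23, adjusted p = 0.312), thinned (0.48, adjusted p = 0.122) or without library 1 (0.70, adjusted p = 0.0646, edgeR). Of the class II genes H2-Eb1 was called lower, at -2.40 ± 1.05 (adjusted p = 0.0485, edgeR), on few counts. This call was lost without library 1 (-2.36, adjusted p = 0.0861) or library 3 (adjusted p = 0.143, edgeR). Higher genes made up 26.4% of all calls on library totals, against 53.8% with TMM.

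The kit reads 3′ ends, and H2-D1, H2-K1 and the H2-Q genes are near-identical copies among which reads can be split or dropped, so their separate values are uncertain. With H2-D1, H2-K1, H2-Q4, H2-Q6 and H2-Q7 summed as 1 feature, the log2 difference from basal cells was 3.55 in superficial cells, 1.94 in conjunctival cells, 1.03 in wing cells and 0.56 in limbal cells.

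Stretches just upstream of the RefSeq start sites (build GRCm38.p6) are shown for some of the genes. H2-D1, H2-K1 and B2m stand for class I and H2-Aa for class II. Capitals mark 4 letter patterns or their reverse complements: GGGANTCCC (a kappa B site, present in class I promoters), AANNGAAA (the core bound by interferon regulatory factors), TGACG (the X2 box core) and ATTGG (the Y box, an inverted CCAAT box). In H2-Aa the capitals TGACGTCA are TGACG and its reverse complement overlapping.
H2-D1, chr17:35262844-35263093, plus strand: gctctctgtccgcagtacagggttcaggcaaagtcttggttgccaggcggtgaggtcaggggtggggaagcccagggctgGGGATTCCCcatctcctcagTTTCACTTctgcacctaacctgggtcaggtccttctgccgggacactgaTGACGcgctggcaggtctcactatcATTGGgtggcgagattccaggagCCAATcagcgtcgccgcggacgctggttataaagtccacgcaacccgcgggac
H2-K1, chr17:34000334-34000583, minus strand: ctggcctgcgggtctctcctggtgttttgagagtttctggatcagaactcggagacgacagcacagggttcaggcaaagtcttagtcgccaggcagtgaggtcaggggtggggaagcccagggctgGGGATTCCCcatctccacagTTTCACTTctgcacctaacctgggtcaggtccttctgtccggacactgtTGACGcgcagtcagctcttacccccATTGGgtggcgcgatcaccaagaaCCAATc
B2m, chr2:122147437-122147686, plus strand: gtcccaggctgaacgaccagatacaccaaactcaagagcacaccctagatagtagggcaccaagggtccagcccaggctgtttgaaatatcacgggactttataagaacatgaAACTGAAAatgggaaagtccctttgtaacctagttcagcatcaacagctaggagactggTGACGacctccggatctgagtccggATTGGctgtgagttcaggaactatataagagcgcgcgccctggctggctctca
H2-Aa, chr17:34287824-34288073, minus strand: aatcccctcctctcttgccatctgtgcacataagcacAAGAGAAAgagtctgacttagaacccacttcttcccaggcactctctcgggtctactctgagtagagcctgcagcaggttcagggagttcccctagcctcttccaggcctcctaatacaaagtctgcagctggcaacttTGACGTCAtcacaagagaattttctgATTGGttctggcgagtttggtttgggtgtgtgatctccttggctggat

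The windows of H2-D1 and H2-K1 share an unbroken stretch of 47 bases, which holds the match to GGGANTCCC. Windows of 250 bases were found for 8 of the 10 genes, and H2-Ab1 and Cd74 had none in the table. GGGANTCCC, which reads the same on both strands, was in the windows of 2 of the 8, H2-D1 and H2-K1, and in 0.636% of 32851 windows of the same length. AANNGAAA was in 5 of the 8, H2-D1, H2-K1, B2m, H2-Aa and H2-T23, and in 21.3% of all windows. ATTGG was in 7 of the 8 and in 33.8% of all windows, and TGACG in 5 of the 8 and in 17.8% of all. The patterns were chosen with these sequences in view, and a match of letters is not shown to be a bound site.

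Other genes of the class I pathway were taken from a list of 28, of which 26 were in the table and 21 passed the filter. In superficial cells 18 of the 21 were higher and 2 lower than in basal cells, beside 42.7% of all genes called higher and 42.5% lower. The median log2 difference of the 21 was 2.34, against -0.02 over all genes. On library totals 16 were higher and 3 lower, beside 2721 and 9470 of all 13472 genes. Their median was then 1.08, against -1.29 over all genes. Irf1, a transcription factor of the interferon response, had 505, 446 and 517 CPM in superficial cells, against 22.1, 19.7 and 18.2 CPM in basal cells, and rose by 5.88 ± 0.08 (adjusted p = 2.23e-30, edgeR). The proteasome activator subunits Psme1 and Psme2 rose by 2.45 ± 0.06 and 2.61 ± 0.05 (largest adjusted p of the pair = 4.13e-24, edgeR). Psme2 had 524, 593 and 505 CPM in superficial cells, against 215, 241 and 188 CPM in basal cells. Calnexin (Canx), a chaperone of new heavy chains, and Erap1, which trims peptides in the endoplasmic reticulum, were the 2 lower genes and are named after their values were seen. H2-Q7, a class Ib chain, rose by 3.98 ± 0.86 on few counts (adjusted p = 3.14e-04, edgeR). Erap1 had 3.25, 2.34 and 4.90 CPM in superficial cells, against 12.4, 12.3 and 13.7 CPM in basal cells. Canx had 39.7, 42.6 and 37.2 CPM in superficial cells, against 119, 115 and 124 CPM in basal cells.

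In the other classes the median difference of the list was smaller. In conjunctival cells 15 of 21 were higher and 0 lower, beside 39.6% and 36.7% of all genes. Their median was 1.01, against -0.00058 over all genes. On library totals 14 were higher and 4 lower, beside 3664 and 7121 of all 13472 genes. In wing cells 13 were higher and 3 lower, beside 39.7% and 34.4% of all genes, with a median of 0.51. On library totals wing cells had 11 higher and 5 lower, beside 3920 and 6321 of all genes. In limbal cells 6 were higher and 2 lower, with a median of 0.21. Those counts are near the shares of all genes in limbal cells, 22.8% higher and 17.7% lower, although all 6 class I members were higher there. On library totals limbal cells had 10 higher and 0 lower, beside 3739 and 1701 of all genes. Irf1 differed less in limbal cells, with 34.2, 23.9 and 27.1 CPM there and a log2 difference of 0.39 ± 0.10 (adjusted p = 0.00379, edgeR). In TAC1 cells 6 were higher and 1 lower, beside 13.7% and 10.2% of all genes. In TAC2 cells 3 were higher and 6 lower, beside 20% and 19.7% of all genes. Nlrc5, the known transactivator of class I genes, was under 0.6 CPM in every epithelial sum and did not pass the filter.

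The list of interferon signalling genes holds 12, of which 11 were in the table and tested, and shares Irf1 with the class I list. In superficial cells 9 were higher and 1 lower, with a median of 1.91, beside 42.7% of all genes called higher and 42.5% lower. On library totals 8 were higher and 3 lower, beside 2721 and 9470 of all 13472 genes. Ifngr2, a chain of the interferon gamma receptor, had 158, 151 and 163 CPM in superficial cells, against 13.1, 14.5 and 15.9 CPM in basal cells, a log2 difference of 4.71 ± 0.08 (adjusted p = 1.50e-28, edgeR). It lay above the basal values in conjunctival cells too, at 69.3, 71.1 and 68.5 CPM. Ifnar2, a chain of the type I interferon receptor and the 1 gene that fell, is also named after its values were seen. It had 1.87, 3.14 and 2.14 CPM in superficial cells, against 28.9, 29.8 and 24.7 CPM in basal cells. In limbal cells 3 of the 11 were higher and 1 lower, with a median of 0.09, beside 22.8% of all genes called higher and 17.7% lower.

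**Figure D4:**
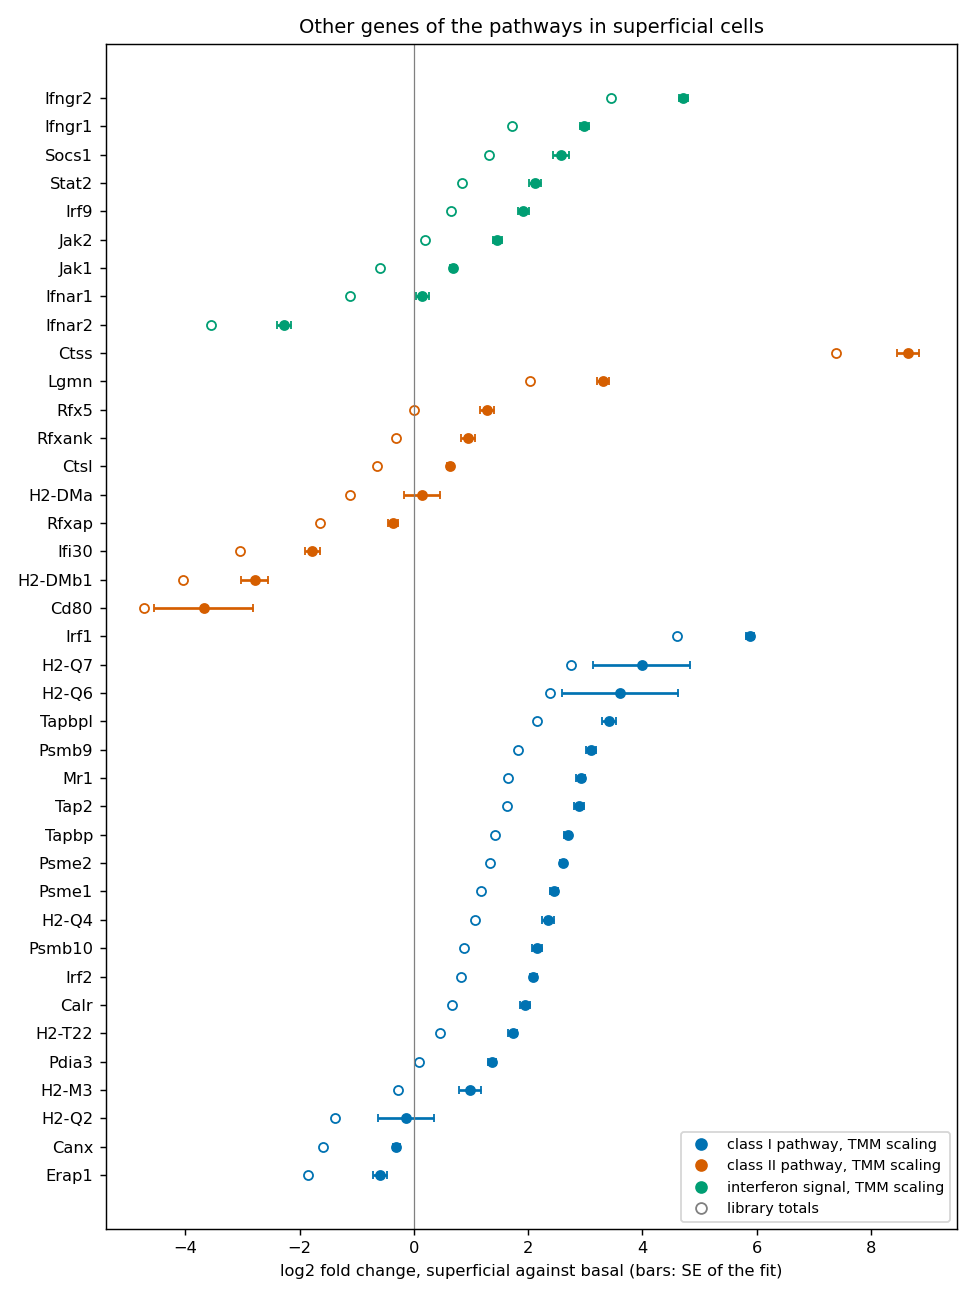
Log2 fold change of superficial against basal cells for the genes shown of the class I pathway, class II pathway and interferon lists, with filled points for TMM scaling (bars, SE of the fit) and open points for library totals; Irf1 is drawn once. Ctss at 8.65, Irf1 at 5.88 and Ifngr2 at 4.71 stand highest, and Ifnar2 lies below 0 on both scales.

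Class II genes belonged almost entirely to the immune class. Cd74, the invariant chain that guides class II molecules to the endosome, had 18527, 22094 and 22854 CPM in immune sums, against 1.22, 3.64 and 0.436 CPM in the pooled epithelium. H2-Aa, the alpha chain of the I-A molecule, had 6037, 5894 and 8916 CPM in immune sums, against 0.379, 1.07 and 0.231 CPM in the epithelium. Its partner H2-Ab1 had 9024, 8116 and 12245 CPM in immune sums and H2-Eb1, a beta chain of I-E, 7661, 8131 and 10948 CPM, and each stayed under 1.5 CPM in the pooled epithelium. Since the labels were made from the same expression values, these differences describe the immune class and support nothing about it.

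In the fit of immune against pooled epithelial sums 6 of the 10 genes were higher, beside 5.61% of 13788 genes called higher, 8.17% lower and 13.8% in either direction. The 4 class II genes had log2 differences between 13.32 and 13.79. B2m had 677, 644 and 1383 CPM in immune sums, against 28.0, 30.5 and 36.5 CPM in the pooled epithelium, a difference of 4.23 ± 0.34 (adjusted p = 7.26e-33, edgeR). The 6 sums leave 2 residual degrees of freedom, so the p-values of this fit rest mostly on a spread shared over all genes and their size is uncertain. For B2m the adjusted p ran from 1.81e-114 to 5.46e-08 when 1 library was left out. H2-T23 had 291, 163 and 367 CPM in immune sums, against 65.5, 48.7 and 68.9 CPM in the epithelium, a difference of 1.60 ± 0.30 (adjusted p = 2.64e-06, edgeR). Without library 1 the H2-T23 call was lost, at 1.49 with an adjusted p of 0.152. The class II calls were lost without library 3 for Cd74, H2-Ab1 and H2-Eb1 (adjusted p from 0.108 to 0.314, edgeR) and on library totals for all 4 (adjusted p from 0.0578 to 0.0715), with log2 differences of 12.76 or more in these fits.

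The classical heavy chains did not pass that test. H2-D1 had 885, 720.1 and 734 CPM in immune sums, against 448, 355 and 404 CPM in the pooled epithelium, and the groups did not overlap, but the log2 difference of 0.48 ± 0.33 had an adjusted p of 0.447 (edgeR). H2-K1 (0.46, adjusted p = 0.480), Tap1 (-0.30, adjusted p = 0.823) and Psmb8 (-0.11, adjusted p = 0.868) did not pass either. On library totals, where the median over all genes was -0.21 against -0.61 with TMM, H2-D1 (0.97, adjusted p = 7.78e-06) and H2-K1 (0.93, adjusted p = 0.00114, edgeR) passed. Both also passed in the fit of all 24 sums (0.85, adjusted p = 6.87e-07, and 0.57, adjusted p = 0.00105, edgeR). H2-D1 also passed without library 3 (0.65, adjusted p = 0.00128) and without 15 immune cells that held at least 20 UMIs of the corneal keratin Krt12 (0.74, adjusted p = 0.00224, edgeR). Without those 15 cells the immune sums had 1219, 1053 and 734 CPM of H2-D1, and the superficial values of 1186, 874 and 1100.4 CPM lay within the same range. Higher genes made up 59.4% of all calls on library totals, against 40.7% with TMM. In counts the immune sums are thin, with 26 to 141 UMIs of H2-D1, 49 to 126 of B2m and 1 to 5 of Tap1 per library, so that Tap1 could not be placed.

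The rest of the class II pathway followed the 4 genes into the immune class in part. Of 17 genes listed 15 were in the table and 12 were tested, of which 7 were higher and 1 lower in immune sums, beside 5.61% and 8.17% of all genes. Their median was 2.90, against -0.61 over all genes. Ciita, the master regulator of class II transcription, had 83.3, 61.3 and 113 CPM in immune sums and at most 0.234 CPM in the limbal, conjunctival, superficial, wing and basal sums. Ctss, the protease that finishes the cleavage of the invariant chain in antigen-presenting cells, had 1468, 1701 and 2342 CPM in immune sums. H2-DMa, part of the editor that loads peptides and named after its values were seen, had 656, 516 and 1100.4 CPM in immune sums, and Cd86, a co-stimulatory ligand, 72.9, 112 and 198 CPM. Ctsl, a related protease that serves the same step in thymic epithelium, was the gene that fell, with 510, 490 and 226 CPM in immune sums. Ctss was also found in superficial cells, at 47.1, 34.6 and 41.4 CPM against 0.490, 0.120 and 0.112 CPM in basal cells, a log2 difference of 8.65 ± 0.19 (adjusted p = 2.43e-23, edgeR). Superficial cells had 5 of 10 tested class II pathway genes higher and 4 lower than basal cells, near the 42.7% and 42.5% of all genes called there. On library totals 2 were higher and 7 lower, beside 2721 and 9470 of all 13472 genes. None of the 4 class II members passed the test in superficial cells.

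Within the immune class, class II RNA was heavy and nearly general. The 4 genes made up a median of 5.47% of the UMIs of an immune cell, with a range from 0% to 14.6%. At least 10 class II UMIs were found in 105 of the 114 cells, fewer than 10 in 9, and none in 2. Cells of the 3 libraries numbered 26, 68 and 20, and their median share of class II UMIs was 5.46%, 5.40% and 5.78%. After thinning to 2000 UMIs, which left 56 of the 114, Cd74, H2-Ab1, H2-Aa and H2-Eb1 each had a UMI in 100% of the immune cells of each library. In the epithelium the mean share for Cd74 was then 0.0895% ± 0.0816 (SD over 3 libraries).

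Markers of several leukocytes were present in the class. A UMI of a C1q gene, a macrophage product, was found in 109 of 114 cells, Csf1r in 48, and Cd207, the Langerhans cell lectin langerin, in 42. The constant genes of the T cell receptor were found in 3 cells and none of the 2 neutrophil markers S100a8 and S100a9 in any. All 42 cells with Cd207 also held Csf1r or C1q. Summed over 8 genes, the macrophage and monocyte markers came to 10669, 12007 and 18876 CPM in immune sums, against 18.5, 16.4 and 16.4 CPM in the pooled epithelium. Krt12 was detected in all 114 cells, with a median of 5 UMIs. The immune cells were shallow, with a median of 1975.5 UMIs against 11594 in epithelial cells. The part of depth and of the mixture of cells in the immune values was not tested.

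**Figure D5:**
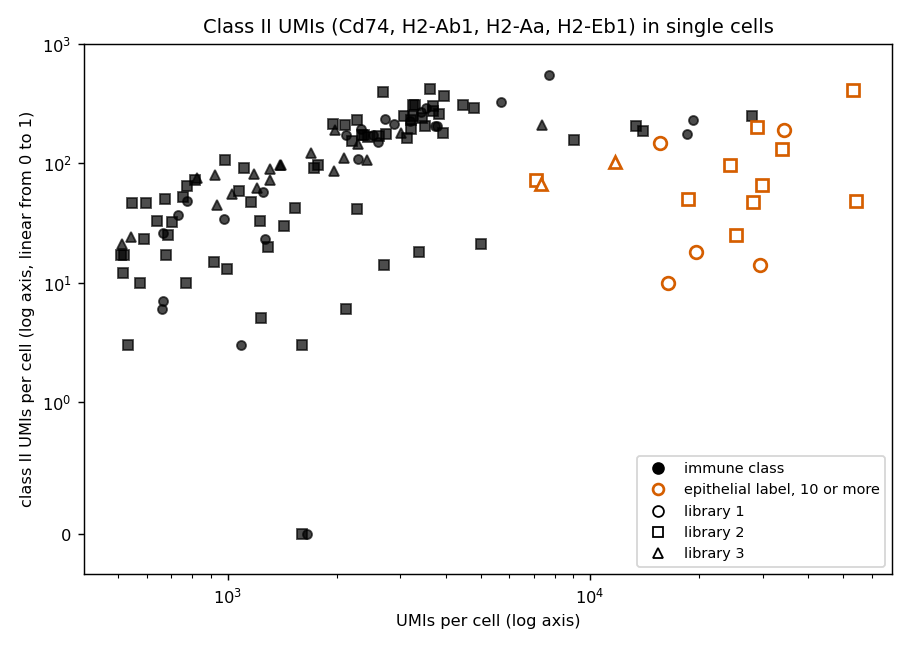
Summed UMIs of Cd74, H2-Ab1, H2-Aa and H2-Eb1 against total UMIs of the cell (log axes, the vertical one linear from 0 to 1) for the 114 immune cells (filled) and the 17 cells with an epithelial label and at least 10 class II UMIs (open), with the library as the shape. Of the immune cells 105 hold at least 10, and the median total is 25281 UMIs for the 17 cells and 1975.5 UMIs for the immune cells.

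Class II counts in the epithelium were rare and concentrated. Among 37997 epithelial cells 1997 class II UMIs were counted, and 1700 of them (85.1%) lay in 17 cells with at least 10 each. Of these 14 were labelled wing, 2 TAC1 and 1 superficial, and 5, 10 and 2 came from libraries 1, 2 and 3. All 17 also held a UMI of a leukocyte marker (Ptprc, Tyrobp, Fcer1g, Coro1a, Laptm5 or Cd52). The share was 41.2% of epithelial cells with 2 to 9 class II UMIs, 3.19% with 1 and 0.646% with 0. These groups differed in depth. The median was 25281 UMIs in the 17 cells, 17777.5 with 2 to 9, 17777.5 with 1 and 11561.5 with 0. C1q was found in 14 of the 17, and their median Krt12 count was 514 UMIs. The make-up of their class II UMIs was compared with that of the immune cells library by library. Cd74 made up 53.7%, 49.1% and 40.2% of the class II UMIs of these cells in libraries 1, 2 and 3, against 44.9%, 49.9% and 41.6% in immune cells. H2-Ab1 made up 12.2%, 17.4% and 22.5%, against 21.9%, 18.3% and 22.3% in immune cells, so library 1 held more Cd74 and less H2-Ab1 in these cells. The shares of these cells rest on 378, 1153 and 169 UMIs. In library 2, 1 wing cell held 414 of the 1153. The 2 TAC1 cells of that library were richer in Cd74, with 39 of 50 and 61 of 73 class II UMIs.

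A difference of wing from basal cells rested on those cells. All 4 class II genes were called higher in wing cells, beside 39.7% of all genes called higher there. Cd74 stood at 3.95 ± 0.54 (adjusted p = 7.82e-06, edgeR), from 2.41, 6.74 and 0.804 CPM in wing sums against 0.264, 0.520 and 0 CPM in basal sums. Without the 17 cells Cd74 stood at -0.23 (adjusted p = 0.693, edgeR), and 0 of the 2 class II genes still tested passed. The other class II genes then failed the filter on low counts, so the calls describe the wing sums and support nothing further. The 17 cells were picked by their class II UMIs and none was basal. Leaving them out could only lower the wing and TAC1 values, so it shows where the counts lay and tests nothing. The 281 epithelial cells that held a leukocyte marker UMI include all 17, so leaving them out is no separate check. Cd74 in wing cells then stood at -0.96 (adjusted p = 0.145, edgeR), with 1 class II gene still tested. Cd74 in TAC1 cells was likewise called higher, at 2.64 ± 0.67 (adjusted p = 0.00916, edgeR), and stood at -0.17 without the 17 cells and -0.68 without library 2. It was also not called without library 3 (2.66, adjusted p = 0.0550, edgeR), without the block (2.90, adjusted p = 0.195, edgeR) or by DESeq2 (2.06, adjusted p = 0.0817).

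In the limbal class class II counts were low, and no cell held 10 or more. At least 1 class II UMI was found in 16 of 737 limbal cells (2.17%), compared with 0.362% of basal cells, at median depths of 8690 and 8417 UMIs. Limbal cells held 2.53, 3.75 and 5.77 CPM of the 4 genes together, against 0.716, 1.04 and 0.0748 CPM in basal cells, without overlap. Only H2-Ab1 of the 4 was called higher, at 2.62 ± 0.96 (adjusted p = 0.0300, edgeR), on 5 UMIs in limbal cells. This call was lost without library 1 (2.20, adjusted p = 0.146), without library 3 (2.12, adjusted p = 0.163) and without the library block (3.03, adjusted p = 0.191, edgeR). Without epithelial cells holding 10 or more class II UMIs, H2-Ab1 failed the filter on low counts and was not tested. Of the 2 class II genes still tested then, 1 was called in limbal against basal cells. The keratocyte gene Dcn stood at 12.7, 9.13 and 8.65 CPM in limbal sums, against 0.113, 0.280 and 0 CPM in basal sums. It was the only 1 of 4 listed keratocyte genes among the genes counted. Whether it came from limbal cells or from another cell type was not tested, nor was any link to the class II counts. Of the 6 leukocyte markers searched, Ptprc, Tyrobp and Laptm5 had 0 UMIs in all 3 limbal sums, while Fcer1g, Coro1a and Cd52 were found in library 2 and Coro1a in library 3. Together the 6 markers had 0, 1.40 and 0.577 CPM in limbal sums, against 0.716, 0.721 and 0.486 CPM in basal sums, and the ranges overlapped. A marker UMI was found in 1 of the 16 limbal cells with a class II UMI.

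The genes most like H2-D1 over the 21 epithelial sums were Tmem248, Arrdc4, Cab39, Gfpt1 and Pdcd6 (each r = 0.99, of 3069 genes compared). Those most like B2m were Gpha2 (r = 0.92), Ifitm3 (0.92), Id3 (0.89), Txnip (0.82) and Nr1h2 (0.81), and Gpha2 and Ifitm3 are markers of the limbal class. Over the 24 sums that include the immune class, those most like Cd74 were Gnai2 (r = 0.96), Ctsa (0.96), Ctsb (0.94), Pold4 (0.94) and B2m (0.94), of 2914 genes compared. These are likenesses of pattern over sums that share libraries.

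In the GENCODE M21 annotation of GRCm38, 8 of the 10 genes lie on chromosome 17 and B2m on chromosome 2. H2-K1 spans chr17:33996017-34000347 on the minus strand, Tap1 chr17:34187553-34197225 and Psmb8 chr17:34197721-34201454, both on the plus strand. H2-Ab1 spans chr17:34257689-34269419, H2-Aa chr17:34282744-34287823 on the minus strand and H2-Eb1 chr17:34305867-34316674. H2-D1 spans chr17:35262730-35267499 and H2-T23 chr17:36029773-36032855 on the minus strand, and B2m chr2:122147686-122153083. All 9 are annotated as protein coding. Tap1 and Psmb8, neighbours on the same strand, did not keep the same order over the classes, since Tap1 was highest in conjunctival and Psmb8 in superficial cells. With trimmed-mean scaling the lead of conjunctival over superficial cells in Tap1 was only 0.17 on the log2 scale.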

How the data were processed

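The authors deposited a matrix of whole-number UMI counts, not normalised, with genes in rows and cells in columns, and a deposited table gave each cell's library and class. Cell Ranger 5.0.0, Seurat 4 and build mm10 are named in the submitters' processing notes, without role or order. No source used here gives the filters, doublet handling or labelling of classes, and no doublet caller was run. The numbers in the names placed libraries 2 and 3, and library 1 was the one left. No pair of libraries held the same counts (chi-square per degree of freedom 73.4 to 201).

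Counts were summed per library and class and tested with edgeR 4.0.16 in R 4.3.3 (quasi-likelihood, robust, TMM, filterByExpr) in 1 fit of 21 epithelial sums and 1 fit of 6 immune and epithelial sums, with Benjamini-Hochberg adjustment over all genes of a comparison and a threshold of 0.05. All classes of a library came from 1 cell suspension, so the library was a block, a pairing by construction. Levels (CPM) are counts normalised to the class total, and their neighbours were compared in a fit on library totals. Thinning to 2000 UMIs left out 609 cells. Genes most alike were ranked by Pearson's r of log2(CPM + 1), centred by library, among genes with a mean of at least 5, and 5 are named. The other named genes are the 2 most abundant and the 2 largest changes past the threshold of each list, with the regulators Nlrc5, Ciita and Irf1, and exceptions are stated. A further gene of the lists counts in their totals and is not reported here. The fit was tested on simulated data. DESeq2 1.42.0 was an alternative. Limits for a count of 0 allow 3 counts and cover counting error only. Symbols were matched to GENCODE M21 (17641 of 17931 found), and promoter windows come from RefSeq. The genes, lists and comparisons were chosen with earlier results of these data known.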

Additional observations from a re-analysis of the deposited data

How the results depend on the processing

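Counts of called class I genes against basal cells moved past 1.5 times in 3 places. With only the classes compared in the fit 3 genes were called in TAC1 cells instead of 0, and 4 in TAC2 cells instead of 2, and thinned to 2000 UMIs 1 was called in TAC2 cells. The cause was not tested. Other counts stayed within 1.5 times under every alternative that gave a count. These were DESeq2 size factors, other sums in the fit, the DESeq2 test, no filter on low counts and no replicate block. They also included leaving out each library, thinning and leaving out cells with leukocyte markers. Chosen after seeing the data were library totals, class II-rich epithelial cells left out and Krt12-rich immune cells left out. The Krt12 setting was run only for immune against epithelial sums. The fit with near-identical heavy chains summed, also chosen after seeing the data, gave no count of genes called. Leaving out 1 library gave 5 to 6 calls in conjunctival cells, 5 to 6 for conjunctival against limbal cells and 4 to 6 for immune against epithelial sums.

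Without the library block, a pairing by construction, class I calls numbered 6 in limbal, 5 in conjunctival, 5 in wing, 6 in superficial, 0 in TAC1 and 2 in TAC2 cells, 6 for conjunctival against limbal cells, and 6 of 10 genes in immune cells. The block mattered more for all genes, of which 1392 were called in TAC1 cells without it against 3215 with it, and 3096 against 5348 in TAC2 cells. It changed 5 calls of single genes, those of B2m in conjunctival and wing cells, H2-Ab1 in limbal cells, Cd74 in TAC1 cells and, for conjunctival against limbal cells, H2-Eb1 (-2.64, adjusted p = 0.235, edgeR).

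Signs of log2 differences turned as follows. On library totals B2m in conjunctival cells was at -0.14, and immune against epithelial sums gave Tap1 0.086 and Psmb8 0.33. Psmb8 in immune sums was 0.0010 by DESeq2, 0.78 in the fit of 24 sums and 0.14 without Krt12-rich immune cells, and Tap1 was 0.16 thinned. Without leukocyte-marker cells Cd74 was -0.96 in wing and -0.20 in TAC1 cells, and without class II-rich cells it was -0.23 in wing and -0.17 in TAC1 cells, with H2-Eb1 at -0.42 in wing cells. H2-K1 in TAC1 cells was -0.0082 with DESeq2 size factors and -0.0087 by the DESeq2 test. Psmb8 in TAC2 cells was -0.25 thinned. Leaving out 1 library gave ranges across 0 for H2-K1 (-0.019 to 0.042), B2m (-0.035 to 0.027) and Cd74 (-0.68 to 3.34) in TAC1 cells and for Psmb8 (-0.035 to 0.14) in TAC2 cells. Thinning kept 59 of 80 mean levels within 1 SD of the value at full depth, and shares of cells rose with depth, so that 73 of 80 moved. Depth limits the immune values most, with 35442 UMIs in the smallest immune sum.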
